A study of Oryza sativa with 9 samples.

Results

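Small heat shock proteins are a family of chaperones, here 10 rice genes of 55986 loci in the deposited table, taken from it by a fixed list of locus names. The list holds the plastid protein HSP26.7, 6 cytosolic class I proteins (HSP17.9A, HSP17.4, HSP18.1, HSP17.7, HSP16.9C and HSP16.9A), the cytosolic class II protein HSP18.0, the endoplasmic reticulum protein HSP23.2 and the organelle protein HSP24.1. The members were chosen by locus name when RPKM results of the same libraries were known, among them a lower HSP26.7 in both mutants than in WT, so the comparisons of each mutant with WT are given as a description. RNA was sequenced in 9 libraries from developing Oryza sativa seeds, collected 10 to 14 days after flowering and freed of their hulls; the plants stood in growth chambers at 27 °C, lit for 12 h and dark for 12 h a day. P1MH seeds carry the change G401S in the RNA-binding protein RBP-P, P3MH seeds carry A252T in the same protein, and WT seeds are wild type, with 3 biological repeats each. The study asked which transcripts change when RBP-P is mutated, and every plant was kept at the same temperature, with no heat treatment named. Both alleles are amino acid changes, so the level of the RBP-P transcript does not check the labels. How many seeds, plants or independent lines stand behind a repeat was not given in the sources used here.

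Small heat shock proteins bind partly unfolded proteins and hold them in a state from which they can be refolded. They use no ATP themselves, and the refolding is done by HSP70 and by disaggregases of the ClpB/HSP101 kind. Most plant genes of the family are nearly silent in leaves until heat shock transcription factors (HSFs) switch them on, but several are also switched on without heat during seed development. Plants carry separate small heat shock proteins for the cytosol, plastids, mitochondria and the endoplasmic reticulum.

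Levels are in RPKM, which scales the reads of a gene to its length and to the reads of the library, so different genes can be set side by side. The RPKM scale rests on a total of 5865007 to 7498434 reads a library, recovered from the spacing of the low values. On a gene of 1 kb, 3 reads were worth 0.400 to 0.512 RPKM. Of the low values that matched whole reads or odd multiples of 0.5 read, at most 0.208% were of the 0.5 kind in any mutant library, against 19.6 to 21.8% in the WT libraries. This spacing moved with genotype, and its part in the results was not tested. HSP26.7, HSP18.1, HSP23.2 and HSP16.9C had whole reads in every WT library. HSP17.9A, HSP17.4, HSP17.7, HSP16.9A, HSP18.0 and HSP24.1 had totals at odd multiples of 0.5 read in some WT libraries. A whole total does not show that reads were counted alike in WT and the mutants. Of all loci, 16064 had a mean of at least 1 RPKM and were tested with limma on log2(RPKM + 1), with calls made at a Benjamini-Hochberg adjusted p below 0.05. The median log2 fold change of all tested genes was -0.10 for P1MH over WT and -0.13 for P3MH over WT. Calls split into 511 higher and 905 lower for P1MH over WT, or 657 and 572 after rescaling to the median ratio between libraries. For P3MH over WT they split into 268 higher and 498 lower, or 407 and 330 after that rescaling.

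Storage protein genes of the starchy endosperm were abundant in every library, with GLUA1 and GLUA2, which encode glutelins, at 9752 RPKM or more. None of the 9 markers with a checked name was at 0 in any library. The summed RPKM of the glutelins was 36989 to 42622 in P1MH, 24702 to 31042 in P3MH and 22674 to 27375 in WT. Limma called GLUA1 and GLUA2 higher in P1MH (log2 fold changes 0.69 and 0.71, limma adjusted p = 0.0464 and 0.0369). Each call held under 3 of 4 rescalings, and neither gene was called in P3MH. The summed RPKM of 4 embryo and aleurone markers (OLE18, EMP1, RAB21 and LEA3) was 830 to 1257 in P1MH, 625 to 970 in P3MH and 430 to 681 in WT, and limma called OLE18 and RAB21 higher in P1MH, also under 4 rescalings. The summed RPKM of 3 green tissue markers (RBCS, PETE and CAB2R) was 125 to 133 in P1MH, 117 to 190 in P3MH and 153 to 180 in WT, with RBCS and PETE called lower in P1MH and RBCS called lower in P3MH. The PETE call and the P3MH call of RBCS were lost under all 4 rescalings. P3MH replicate 2 had the highest embryo and aleurone sum and the highest green tissue sum of its group. EMP1, RAB21 and LEA3 were highest there, but OLE18 was highest in P3MH replicate 1 (476 RPKM, against 382 RPKM in replicate 2). WT replicate 1 had the highest embryo and aleurone sum of WT. These sums move with genotype and their part in the results below was not tested. In whole seeds, fewer cells of a type and less RNA per cell cannot be told apart.

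In all 3 genotypes the family was led by a few cytosolic members. On the RPKM scale, per length, HSP16.9A was the highest member in every library, at 61.5 to 134 RPKM over all 9. HSP18.0 followed at 30.4 to 61.5 RPKM and HSP17.9A at 22.6 to 46.2 RPKM, and these ranges overlapped, with HSP18.0 the higher of the pair in 7 of 9 libraries. Then came HSP17.4 at 4.77 to 14.5 RPKM, below every value of HSP17.9A. HSP26.7, HSP24.1, HSP17.7, HSP18.1 and HSP23.2 followed in that order of mean level, and no neighbours in that order had separate ranges. HSP16.9C was at the floor, with at most 2 reads in any library and 6 reads in all 9, and is given no fold change. Of the 10 genes, 9 passed the filter on low values. HSP17.4 and HSP17.7 span only 465 and 480 bp in the deposited table. Reference genes of those names are 1.82 and 1.92 times as long, and the effect on their RPKM was not tested.

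**Figure D1:**
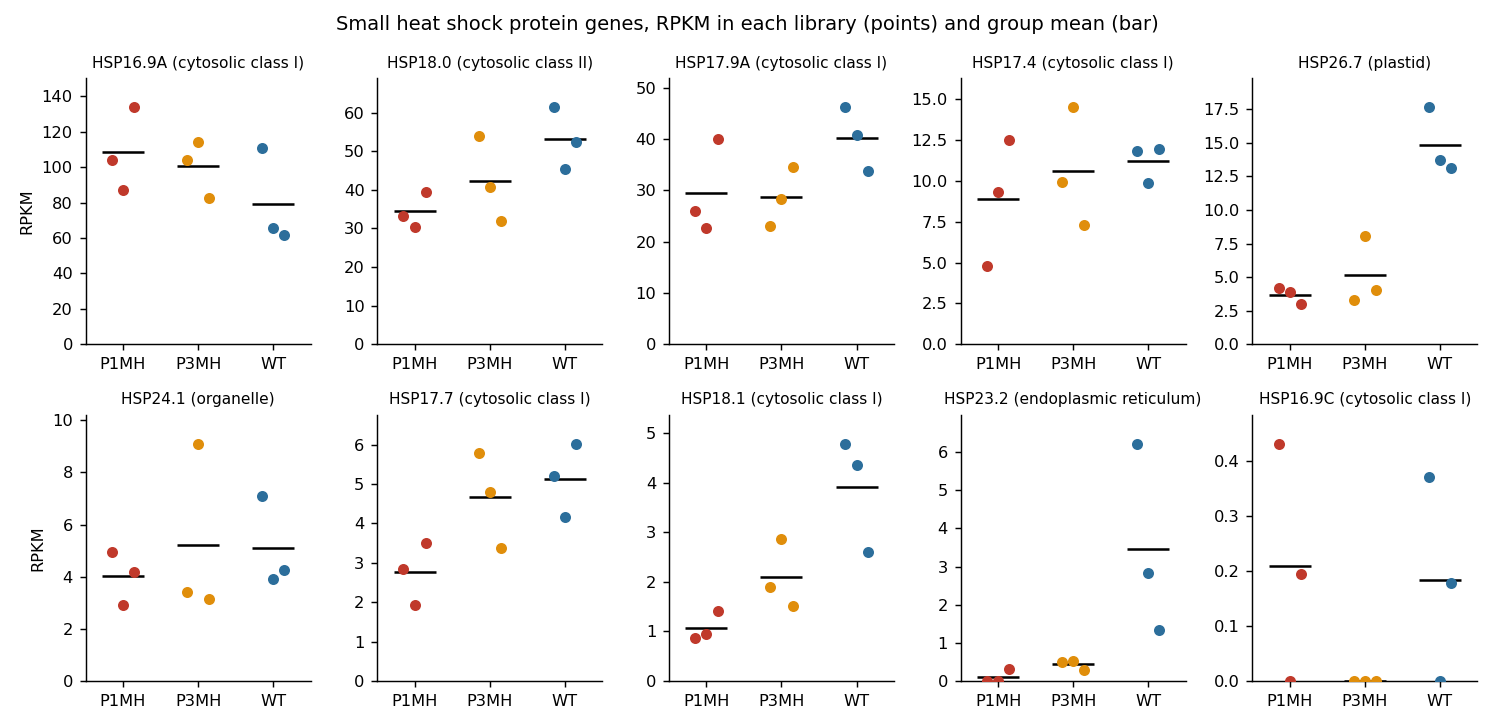
RPKM of each of the 10 small heat shock protein genes (vertical axis, from 0, with its own scale per gene) in the P1MH, P3MH and WT libraries. Points are libraries in replicate order and bars are group means (n = 3). HSP26.7 lies between 3.02 and 8.05 RPKM in the mutant libraries and between 13.12 and 17.68 RPKM in WT.

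HSP26.7 (LOC_Os03g14180, chromosome 3, 7697015 to 7698284 in the coordinates of the deposited table) is the small heat shock protein of plastids, whose relatives in other plants have been linked to the protection of photosystem II under heat. It had 4.16, 3.90 and 3.02 RPKM in P1MH, 3.28, 8.05 and 4.05 RPKM in P3MH, and 17.68, 13.76 and 13.12 RPKM in WT. Every mutant library was below every WT library, and P3MH replicate 2 was the highest of the mutants. The means were 3.69 ± 0.599 RPKM in P1MH, 5.13 ± 2.56 RPKM in P3MH and 14.9 ± 2.47 RPKM in WT (SD, n = 3 each). The log2 fold change was -1.75 (SE 0.25) for P1MH over WT and -1.44 (SE 0.25) for P3MH over WT. In reads, 88 in P1MH and 127 in P3MH stood against 402 in WT. Relative to the library totals recovered above, P1MH had 0.248 times the WT rate (95% exact interval 0.195 to 0.314). P3MH had 0.339 times that rate (0.276 to 0.415), and these intervals cover counting error only. Under 19 alternative settings its log2 fold change was -1.98 to -1.63 for P1MH over WT and -1.76 to -1.22 for P3MH over WT. The gene was known to be lower in both mutants when the members were chosen, so these ranges describe the values and support nothing.

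HSP23.2 (LOC_Os04g36750, chromosome 4, 22200999 to 22201941) is a small heat shock protein of the endoplasmic reticulum, the compartment where rice storage proteins are made and folded. It was counted at 0, 0 and 2 reads in P1MH, 3, 3 and 2 reads in P3MH, and 40, 20 and 9 reads in WT. These reads correspond to at most 0.325 RPKM in P1MH and 0.525 RPKM in P3MH, and to 6.22, 2.83 and 1.35 RPKM in WT. All 6 mutant libraries were at or under 3 reads and all 3 WT libraries were above that, so the gene passed the filter only through WT. The WT libraries themselves differed, with WT replicate 1 highest and WT replicate 3 lowest. The rate of reads was 0.0329 times that of WT in P1MH (95% exact interval 0.00391 to 0.123) and 0.125 times that of WT in P3MH (0.0517 to 0.259), counting error only. The fitted log2 fold changes were -1.87 (SE 0.33) for P1MH and -1.49 (SE 0.33) for P3MH. They depend on the pseudocount of 1, and with 0.1 they were -4.21 and -2.52. At a mean of at least 5 RPKM the gene is not tested. The P3MH call was lost under 7 of the other 18 alternatives, namely without the filter, with the pseudocount of 0.1, and without WT replicate 1, WT replicate 2, P3MH replicate 1, P3MH replicate 2 or P3MH replicate 3.

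HSP24.1 (LOC_Os02g52150, chromosome 2, 31920854 to 31922712), a small heat shock protein of an organelle, overlapped between all groups. It had 4.95, 2.91 and 4.19 RPKM in P1MH, 3.43, 9.11 and 3.16 RPKM in P3MH, and 7.10, 3.91 and 4.26 RPKM in WT. P3MH replicate 2 was the highest of all libraries and WT replicate 1 came next. The log2 fold changes were -0.26 (SE 0.32) for P1MH over WT and -0.06 (SE 0.32) for P3MH over WT, neither called, and the sign of the P3MH value turned under some alternatives (-0.47 to 0.17).

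Among the cytosolic class I genes, which encode the major oligomeric small heat shock proteins of plant cells, HSP18.1 (LOC_Os03g16030, chromosome 3, 8834823 to 8835802) differed most from WT. It had 0.870, 0.948 and 1.41 RPKM in P1MH, 1.89, 2.86 and 1.52 RPKM in P3MH, and 4.79, 4.35 and 2.59 RPKM in WT, resting on 5 to 9 reads in a P1MH library, 11 to 17 in a P3MH library and 18 to 32 in a WT library. The P1MH libraries were below all others, while the highest P3MH library was above the lowest WT library. The log2 fold change was -1.22 (SE 0.23) for P1MH over WT and -0.66 (SE 0.23) for P3MH over WT, with ranges of -1.75 to -1.09 and -0.87 to -0.51 over 18 alternatives.

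HSP17.7 (LOC_Os03g16040, chromosome 3, 8838031 to 8838510, minus strand) had 2.84, 1.93 and 3.51 RPKM in P1MH, 5.79, 4.81 and 3.39 RPKM in P3MH, and 5.20, 4.17 and 6.03 RPKM in WT. The P1MH libraries lay below the WT libraries, and the P3MH libraries overlapped with both. Its log2 fold change was -0.72 (SE 0.22) for P1MH over WT, called only without P1MH replicate 3, and -0.13 (SE 0.22) for P3MH over WT. HSP17.4 (LOC_Os03g16020, chromosome 3, 8833913 to 8834377, minus strand) overlapped between all groups, at 4.77 to 12.5 RPKM in P1MH, 7.29 to 14.5 RPKM in P3MH and 9.89 to 12.0 RPKM in WT. Its log2 fold changes over WT were -0.39 (SE 0.29) and -0.12 (SE 0.29) in P1MH and P3MH, and neither was called. Under some alternatives the P3MH values of HSP17.7 and HSP17.4 turned above 0, to at most 0.05 and 0.10.

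HSP17.9A (LOC_Os03g15960, chromosome 3, 8805567 to 8806601) had 26.03, 22.58 and 39.99 RPKM in P1MH, 23.1, 28.2 and 34.6 RPKM in P3MH, and 46.2, 40.8 and 33.8 RPKM in WT. The ranges overlapped, with P1MH replicate 3 within the WT range. The log2 fold change was -0.46 (SE 0.21) for P1MH over WT and -0.48 (SE 0.21) for P3MH over WT, neither called.

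HSP16.9A (LOC_Os01g04370, chromosome 1, 1948737 to 1949587, minus strand) was the only tested member with a fold change above 0 in both comparisons. It had 104, 86.9 and 134 RPKM in P1MH, 104, 114 and 82.8 RPKM in P3MH, and 111, 65.6 and 61.5 RPKM in WT. WT replicate 1 stood at the level of the mutants, and the other WT libraries were below every mutant library. The log2 fold change was 0.47 (SE 0.23) for P1MH over WT and 0.38 (SE 0.23) for P3MH over WT, neither called under any of 19 alternatives, with ranges of 0.31 to 0.74 and 0.22 to 0.64. HSP16.9C (LOC_Os01g04360, chromosome 1, 1944247 to 1945035, minus strand), the class I gene beside it, had 2, 0 and 1 reads in P1MH, 0, 0 and 0 reads in P3MH, and 2, 0 and 1 reads in WT.

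The class II gene HSP18.0 (LOC_Os01g08860, chromosome 1, 4449032 to 4449876, minus strand) encodes a cytosolic small heat shock protein that in plants forms oligomers apart from those of class I. It had 33.3, 30.4 and 39.6 RPKM in P1MH, 54.1, 40.8 and 31.9 RPKM in P3MH, and 61.5, 45.4 and 52.4 RPKM in WT. The P1MH libraries were below every WT library, and P3MH replicate 1 reached into the WT range. The log2 fold change was -0.61 (SE 0.19) for P1MH over WT, called in 3 of 19 alternatives (with only P1MH and WT in the fit, or without P3MH replicate 1 or 3), and -0.34 (SE 0.19) for P3MH over WT, called in none.

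**Figure D2:**
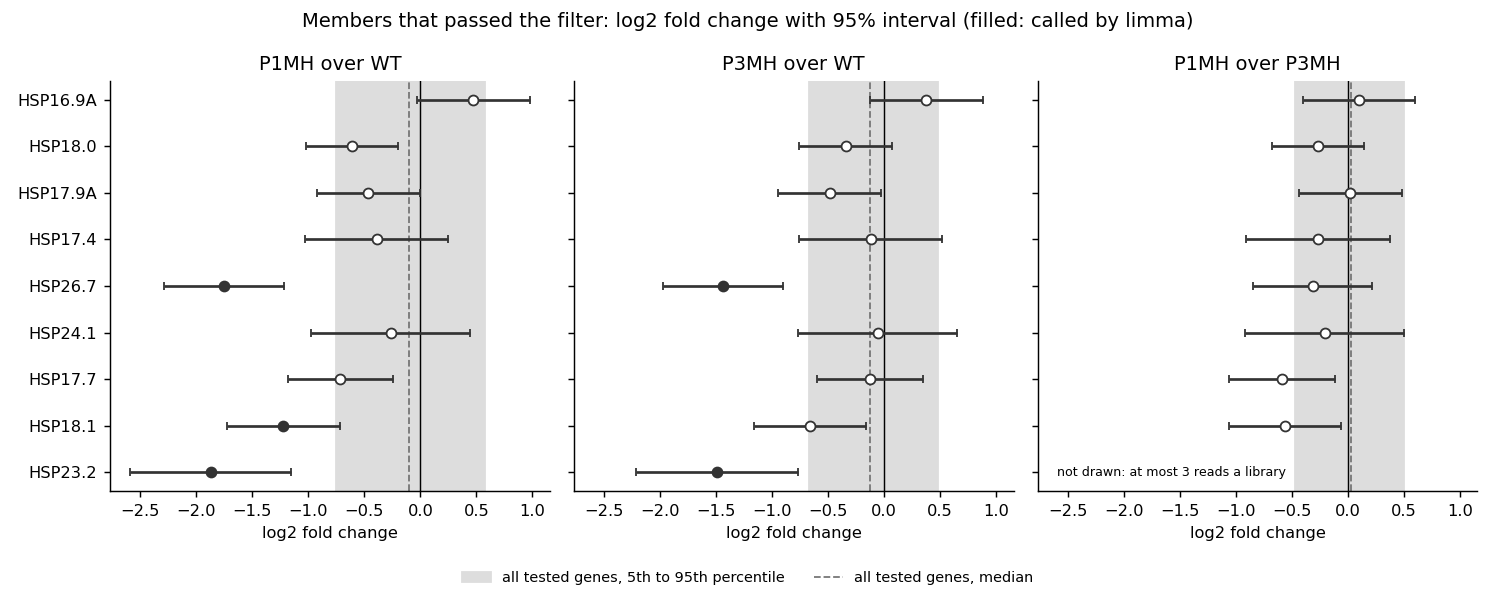
Log2 fold change (horizontal axis) with its 95% interval for the 9 small heat shock protein genes that passed the filter, in the comparisons P1MH over WT, P3MH over WT and P1MH over P3MH. Filled points were called by limma, the grey band spans the 5th to 95th percentile of all 16064 tested genes and the dashed line is their median. HSP26.7 (-1.75 and -1.44) and HSP23.2 (-1.87 and -1.49) lie left of the band in both comparisons with WT, and no member was called between the mutants, where HSP23.2 is not drawn because it has at most 3 reads in each mutant library.

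In P1MH, limma called 3 of the 9 tested members lower than WT (HSP26.7, HSP18.1 and HSP23.2) and 0 higher, beside 5.63% lower and 3.18% higher among all tested genes. An unadjusted p below 0.05 was reached by 6 of the 9, beside 24.7% of all tested genes. Their median log2 fold change was -0.61, against -0.10 for all tested genes, and 8 of 9 values were below 0. Groups did not overlap, with P1MH lower, for 5 members, beside 21.5% of all tested genes. HSP23.2 passed the filter only through WT and so had to be lower in the mutants. Without it, P1MH over WT gave 2 calls lower among 8 members, with a median of -0.54. In P3MH, limma called 2 members lower (HSP26.7 and HSP23.2) and 0 higher, beside 3.1% lower and 1.67% higher among all tested genes, and 4 of the 9 had an unadjusted p below 0.05, beside 19.9%. The median was -0.34, against -0.13 for all tested genes, 8 of 9 values were below 0, and for 2 members P3MH lay wholly below WT, beside 20.6%. Without HSP23.2, 1 of 8 members was called lower, with a median of -0.23, and HSP17.7, HSP17.4 and HSP24.1 turned above 0 under some rescalings. The comparisons share their WT libraries and the members were chosen with these contrasts known, so nothing is read from those shares. The class I genes differ little in sequence, and whether reads were shared between them in the authors' counting was not tested.

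The mutants were set against each other in a contrast whose fold change does not use the WT levels. HSP23.2 is left out of this contrast, since it had 2 reads in P1MH and 8 in P3MH, with at most 3 in any of these libraries. Limma called 0 of the other 8 members, beside 0.0311% of all tested genes (5 of 16064). An unadjusted p below 0.05 was reached by 2 of the 8 and by 12.8% of all tested genes (2054). The lowest p belonged to the chromosome 3 neighbours HSP17.7, with a log2 fold change of -0.59 for P1MH over P3MH (95% interval -1.06 to -0.12, limma adjusted p = 0.295), and HSP18.1, with -0.56 (-1.06 to -0.06, limma adjusted p = 0.338). For HSP26.7 the difference was -0.32 (-0.85 to 0.22, limma adjusted p = 0.635), and it was near 0 (0.0046) without P3MH replicate 2. HSP18.0 stood at -0.26 (-0.68 to 0.15, limma adjusted p = 0.604). For the most abundant member, HSP16.9A, the value was 0.10 (-0.41 to 0.60, limma adjusted p = 0.900), and for HSP17.9A it was 0.02 (-0.44 to 0.48, limma adjusted p = 0.982). HSP17.4 and HSP24.1 stood at -0.27 and -0.21 (limma adjusted p = 0.753 and 0.835). Median differences were -0.27 over the 8 members and 0.02 over all tested genes. Only HSP18.1 had groups that did not overlap, with P1MH lower, beside 6.47% of all tested genes.

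The level of the family as a whole overlapped between genotypes. The summed RPKM of the 10 genes was 193 ± 41.1 in P1MH, 200 ± 27.8 in P3MH and 217 ± 47.9 in WT (SD, n = 3 each), with ranges of 159 to 239, 169 to 223 and 187 to 272. Its makeup differed. HSP16.9A alone took 54.7 to 57.4% of the sum in P1MH, 49.0 to 51.2% in P3MH and 32.9 to 40.8% in WT. These ranges were separate for all 3 genotypes. The sum holds HSP26.7, which was known to be lower in both mutants when the members were chosen. HSP16.9A itself was not called against WT. The shares and sums given here are a description only. The 7 members other than HSP16.9A, HSP18.0 and HSP17.9A summed to 18.02, 19.01 and 25.17 RPKM in P1MH, 24.8, 39.9 and 19.7 RPKM in P3MH, and 53.2, 38.9 and 39.5 RPKM in WT. P3MH replicate 2 alone of the mutant libraries reached the WT range in that sum. The class I genes together came to 151 ± 36.4 RPKM in P1MH, 146 ± 17.66 RPKM in P3MH and 140 ± 34.3 RPKM in WT.

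**Figure D3:**
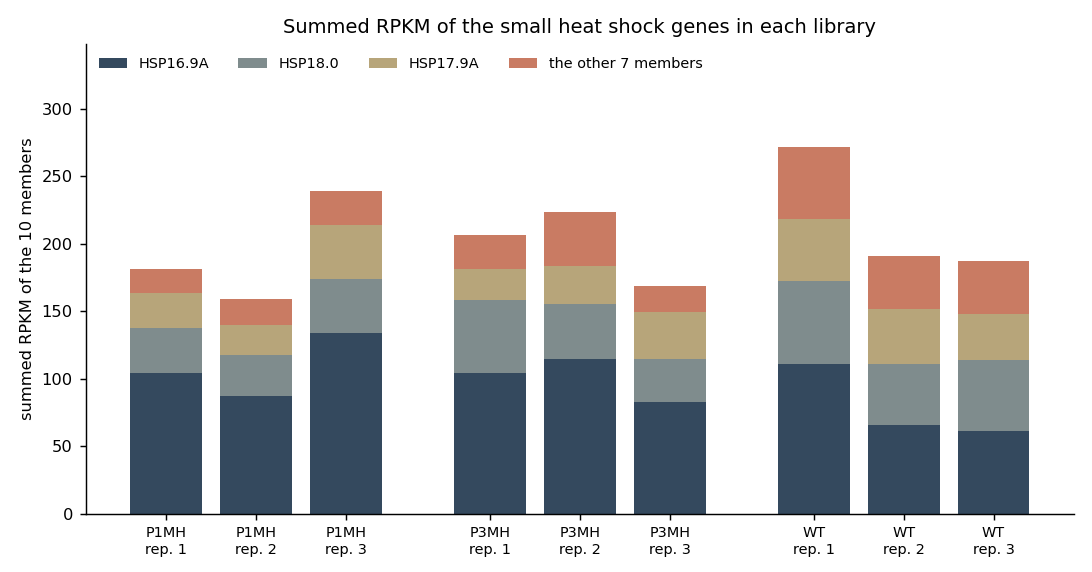
Summed RPKM of the 10 small heat shock protein genes (vertical axis, from 0) in each library, split into HSP16.9A, HSP18.0, HSP17.9A and the other 7 members. Totals overlap between genotypes (159 to 239 in P1MH, 169 to 223 in P3MH, 187 to 272 in WT), while the part of the other 7 members is 18.02 to 25.17 RPKM in P1MH, 19.7 to 39.9 RPKM in P3MH and 38.9 to 53.2 RPKM in WT.

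Within each genotype, most of the tested members were highest in the same library. Of the 9 tested members, 7 were highest in P1MH replicate 3 among the P1MH libraries, 6 were highest in P3MH replicate 2 among the P3MH libraries and 7 were highest in WT replicate 1 among the WT libraries. HSP26.7 was not among them in P1MH, where replicate 3 held its lowest value, 3.02 RPKM. WT replicate 1 and P3MH replicate 2 were also the libraries of their groups with the highest embryo and aleurone sum, and P1MH replicate 3 was not, at 1174 RPKM against 1257 RPKM in P1MH replicate 1. The part of these libraries' makeup in the members' levels was not tested. How many of all tested genes were highest in these same libraries was not worked out. The counts are therefore not read as a trait of the family.

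Of 30 tested heat shock genes set beside HSP26.7 by the Pearson correlation of log2(RPKM + 1) over the 9 libraries, the most alike were HSP18.1 (r = 0.88), HSP23.2 (r = 0.88) and the heat shock factor HSFA3 (r = 0.76). The points are the same 9 libraries of 3 genotypes, and the differences between genotypes enter each r, so these values describe likeness only. HSP16.9A had r = -0.44 with HSP26.7.

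Several members are neighbours. On chromosome 3, HSP17.9A, HSP17.4, HSP18.1 and HSP17.7 lie within 32.9 kb. HSP17.4 (minus strand) and HSP18.1 (plus strand) point away from each other with 445 bases between them, and HSP17.7 (minus strand) runs toward HSP18.1, with 2228 bases between them. The adjacent HSP17.4 and HSP18.1 had log2 fold changes for P1MH over WT of -0.39 (SE 0.29, not called) and -1.22 (SE 0.23, called), and the difference between the genes was not tested. On chromosome 1, HSP16.6, HSP17.9B, HSP16.9C, HSP16.9A and HSP16.9B lie within 18.7 kb, and levels in this group were far apart. HSP16.9A had 61.5 RPKM or more in every library, the other 4 genes had at most 3.22 RPKM in any, and HSP16.6 was listed at 0 in all 9.

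**Figure D4:**
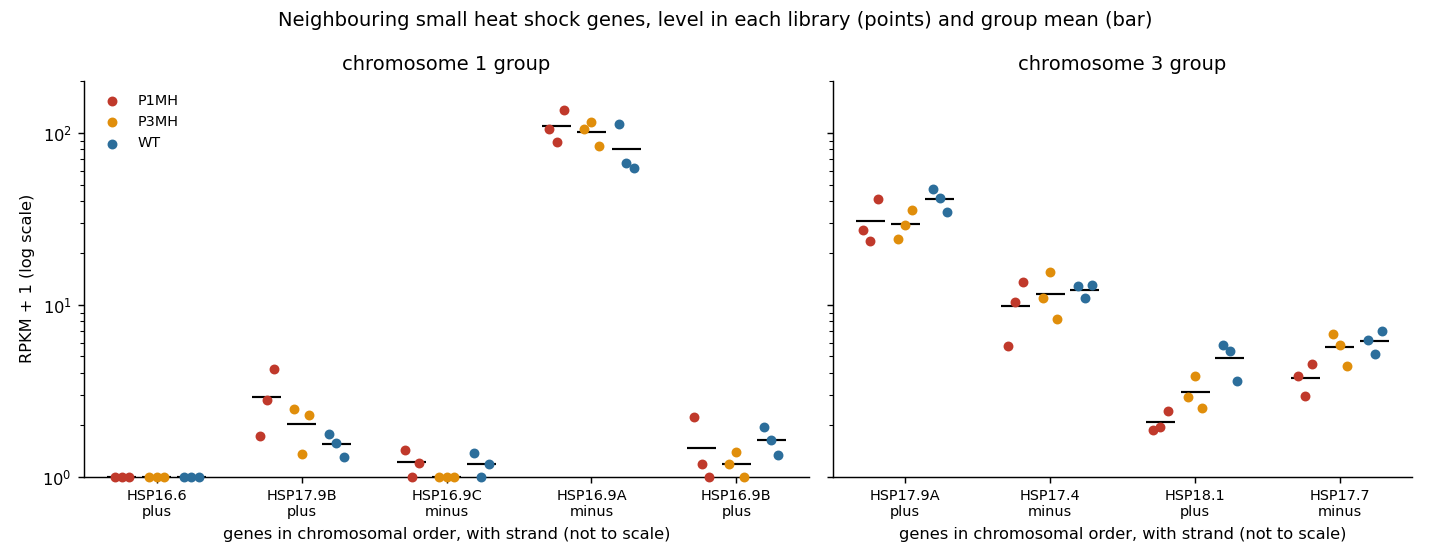
RPKM + 1 (vertical axis, log scale) of neighbouring small heat shock genes in the P1MH, P3MH and WT libraries, in chromosomal order with strand. Points are libraries and bars are group means (n = 3). On chromosome 1 only HSP16.9A rises above 3.22 RPKM in any library, and on chromosome 3 the P1MH points of HSP18.1 (0.870 to 1.41 RPKM) lie below all other points of that gene.

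Outside the 10 genes, 10 of 12 further small heat shock loci carried a checked name and 3 of them passed the filter. The remaining 7 had at most 1.52 RPKM in any library. HSP18.6 (LOC_Os02g54140, chromosome 2, 33179486 to 33180458) had 15.0, 6.12 and 6.76 RPKM in P1MH, 6.45, 4.85 and 3.06 RPKM in P3MH, and 2.90, 4.07 and 2.23 RPKM in WT. All P1MH libraries were above all WT libraries, and P3MH overlapped with WT. How many of all tested genes had P1MH wholly above WT was not worked out. It was called higher in P1MH, with a log2 fold change of 1.26 (SE 0.31, limma adjusted p = 0.0295), and the adjusted p rose to between 0.0667 and 0.120 without P1MH replicate 1, WT replicate 1, WT replicate 3 or the filter. For P3MH over WT it was 0.49 (limma adjusted p = 0.417). HSP17.9B, the neighbour of HSP16.9C, stood at 0.83 in P1MH and 0.36 in P3MH, and HSP22.3 at 0.35 and 0.11. Neither was called, except HSP17.9B in P1MH without P1MH replicate 1 (log2 fold change 1.17, limma adjusted p = 0.0418). HSP17.9B averaged 1.91 RPKM in P1MH, 1.03 RPKM in P3MH and 0.543 RPKM in WT, so it passed the filter only through the mutants. Nothing is read from its fold changes or this call.

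Heat shock factors bind the promoters of small heat shock genes. Of 24 loci, 20 carried a checked name and 13 of those passed the filter, of which 2 were called higher and 0 lower in P1MH, beside 3.18% and 5.63% of all tested genes. In P3MH 1 was called higher and 0 lower, beside 1.67% and 3.1%. An unadjusted p below 0.05 was reached by 4 of the 13 in P1MH, beside 24.7% of all tested genes, and by 2 of the 13 in P3MH, beside 19.9%. The median log2 fold change of the 13 was 0.28 for P1MH over WT and 0.23 for P3MH over WT. HSFA2C, of the class A2 factors that in plants sustain the heat response, had 9.02, 9.35 and 5.49 RPKM in P1MH, 7.52, 7.90 and 7.51 RPKM in P3MH, and 3.70, 3.36 and 3.06 RPKM in WT. All mutant libraries were above all WT libraries, and the share of all tested genes with that order was not worked out. Over WT the gene stood at a log2 fold change of 1.01 ± 0.19 (SE) in P1MH seeds, with an adjusted p of 0.0051 from limma, and at 0.99 ± 0.19 (SE) in P3MH seeds, with an adjusted p of 0.0085. HSFC2B, of the plant-specific class C, averaged 20.96 ± 4.33 RPKM in P1MH, 13.4 ± 0.937 RPKM in P3MH and 10.97 ± 0.314 RPKM in WT (SD, n = 3 each), with a log2 fold change of 0.86 (SE 0.15, limma adjusted p = 0.0040) in P1MH and 0.27 (limma adjusted p = 0.347) in P3MH. HSFA1, whose class A1 relatives start the heat response in Arabidopsis, stood at 0.09 in P1MH and 0.04 in P3MH, and HSFB1 at 0.12 and 0.34, with no calls. HSFA3, the factor most like HSP26.7 across libraries, had 3.70, 3.07 and 2.97 RPKM in P1MH, 2.35, 2.44 and 3.69 RPKM in P3MH, and 6.13, 4.96 and 4.27 RPKM in WT. The WT libraries were above all mutant libraries. Of all tested genes, 21.5% had P1MH wholly below WT and 20.6% had P3MH wholly below WT. The log2 fold changes of HSFA3 were -0.52 (limma adjusted p = 0.113) in P1MH and -0.68 (limma adjusted p = 0.0612) in P3MH. It was called in P3MH only without P3MH replicate 3.

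The ATP-driven partners were measured by few loci with a checked name, 3 of 3 ClpB, 2 of 9 HSP90 and 1 of 19 HSP70 loci. Of the 3 ClpB disaggregase genes, limma called 1 lower in P1MH, beside 5.63% of all tested genes, and 0 in P3MH. The plastid form CLPB-C had 39.9, 50.9 and 34.2 RPKM in P1MH, 54.2, 51.9 and 61.0 RPKM in P3MH, and 64.0, 56.4 and 65.3 RPKM in WT. For P1MH over WT it stood at -0.58 on the log2 scale (SE 0.16, adjusted p from limma 0.0404). The call was lost under each of the 4 rescalings, where the limma adjusted p was 0.0788 to 0.121. It was also lost with no filter, with other moderation and with only P1MH and WT in the fit. Leaving out any WT replicate, or P1MH replicate 1 or 3, lost it too. The limma adjusted p was 0.0537 to 0.144 under these settings. For P3MH over WT it stood at -0.15. The cytosolic CLPB1 (HSP101) stood at -0.08 in P1MH and 0.18 in P3MH, the P1MH value turning to between 0.03 and 0.06 under the rescalings, and the mitochondrial CLPB-M at 0.40 and 0.27, with no calls. HSP81-2, an HSP90, stood at 0.06 and 0.23, and BIP1, the HSP70 of the endoplasmic reticulum, at -0.44 and 0.07, with no calls. BIP1 averaged 1290 ± 205 RPKM in P1MH, 1888 ± 615 RPKM in P3MH and 1748 ± 161 RPKM in WT (SD, n = 3 each), far above HSP23.2 of the same compartment. For P1MH over P3MH, limma called 0 genes in each list outside the 10 members (other small heat shock, HSF, ClpB, HSP90 and HSP70), beside 0.0311% of all tested genes. Each list had 1 gene at an unadjusted p below 0.05, beside 12.8% of all tested genes. The lists held 3, 13, 3, 2 and 1 tested genes, in that order.

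**Figure D5:**
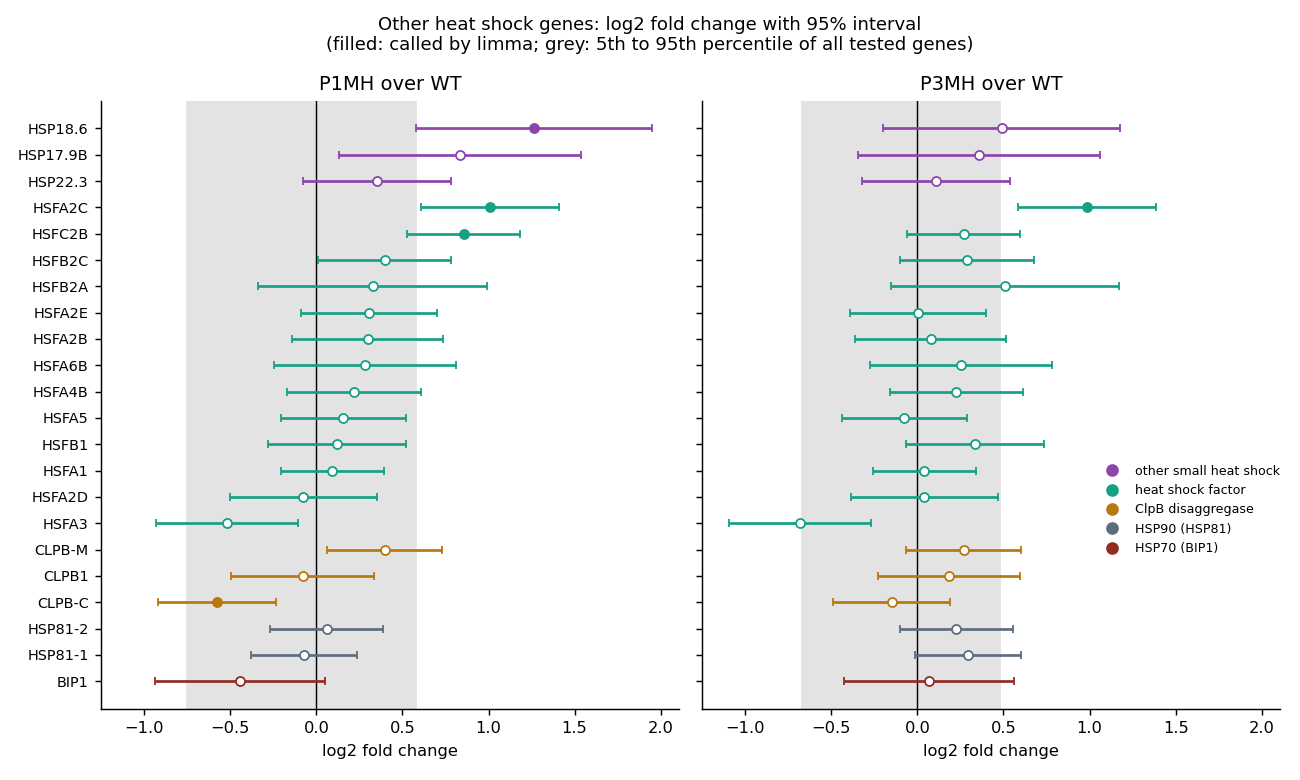
Log2 fold change (horizontal axis) with its 95% interval for other small heat shock, heat shock factor, ClpB, HSP90 and HSP70 genes with a checked name, P1MH over WT and P3MH over WT. Filled points were called by limma and the grey band spans the 5th to 95th percentile of all tested genes. HSFA2C (1.01 and 0.99) lies right of the band in both comparisons, and HSP18.6 (1.26), HSFC2B (0.86) and CLPB-C (-0.58) are filled for P1MH.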

How the data were processed

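The authors deposited 1 table of RPKM values (reads scaled to gene length and library size) with gene coordinates, 1 column per library, per the file headers. Per the labels' protocols, total RNA went through the ScriptSeq v2 library kit. The aligner, the counting program and the genome build were not given in the sources used here. The unit has no counts, so the test was limma 3.58.1 (R 4.3.3), with trend and robust moderation, on log2(RPKM + 1), 1 coefficient per genotype over all 9 libraries, for loci with a mean of at least 1 RPKM, with Benjamini-Hochberg adjustment over all tested loci and calls below 0.05. Fold changes on this scale understate those of low genes. Reads per gene were recovered from the spacing of the low values and used for read ratios with exact 95% intervals and the limit of 3 reads, which cover counting error only. The limma step was tested on simulated data.

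The members and lists were chosen with earlier results of these data known. All 10 members are named. Of each other list the 3 highest by mean RPKM and every called gene are named where the name was checked, and so are the 3 genes most like HSP26.7. HSP16.6 and HSP16.9B were named as neighbours of HSP16.9A, after their values were seen. A locus kept a symbol only where the RefSeq table (assembly ASM3414082v1, used for names alone) had that symbol on the same chromosome. The span there had to be 0.5 to 2 times that of the locus, with at least 4 matching neighbours within 300 kb. Of 90 listed loci, 55 kept one. Endosperm, embryo and aleurone, and green tissue markers were summed per library. Alternatives were 4 rescalings, other filters and pseudocounts, other moderation, a fit of only the groups compared, a replicate block and leaving out each library.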

Additional observations from a re-analysis of the deposited data

How the results depend on the processing

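The count of members called lower in P1MH than in WT was 3 in the main fit and 1 among loci with a mean of at least 5 RPKM, since HSP18.1 and HSP23.2 fall under that filter. In P3MH the 2 members called became 1 with that filter, without any filter and with the pseudocount of 0.1, and 1 to 2 when single libraries were left out. Over all tested genes, the 1416 calls for P1MH over WT became 622 to 1457 when a library was left out, lowest without WT replicates 1, 2 and 3 (923, 715 and 622). The 766 calls for P3MH over WT became 436 at a mean of at least 5 RPKM and 365 to 896 when a library was left out, with 452, 394 and 365 without WT replicates 1, 2 and 3 and 440 without P3MH replicate 2. The 5 calls for P1MH over P3MH became 11 when scaled without the 50 highest genes, 0 without a filter, 2 with the pseudocount of 0.1, 3 with no trend and no robust moderation, 3 with only the groups compared, and 0 to 238 when a library was left out, with 238 without P1MH replicate 3. The causes were not tested.

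For P1MH over P3MH, HSP17.9A turned to -0.017 and -0.030 under median-ratio and upper-quartile rescaling. Under median-ratio and upper-quartile rescaling CLPB-C turned to 0.00032 and 0.0087 for P3MH over WT. CLPB1 turned to 0.030, 0.025, 0.037 and 0.055 for P1MH over WT under the 4 rescalings. For P3MH over WT the 4 rescalings gave -0.040 to 0.026 for HSP17.4, -0.053 to 0.026 for HSP17.7 and 0.017 to 0.086 for HSP24.1. With single libraries left out, the following crossed 0. For P1MH over P3MH the range was -0.54 to 0.0046 for HSP26.7, -0.21 to 0.19 for HSP17.9A, -0.54 to 0.075 for HSP17.4, -0.065 to 0.24 for HSP16.9A and -0.44 to 0.20 for HSP24.1. For P1MH over WT it was -0.20 to 0.025 for CLPB1, -0.0085 to 0.18 for HSFA1, -0.090 to 0.28 for HSFB1 and -0.0092 to 0.17 for HSP81-2. For P3MH over WT it was -0.36 to 0.097 for HSP17.4, -0.27 to 0.046 for HSP17.7, -0.47 to 0.17 for HSP24.1, -0.18 to 0.24 for BIP1, -0.043 to 0.32 for CLPB1 and -0.0058 to 0.10 for HSFA1. None of these was called.

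The main fit did not pair libraries by replicate number. Deviations from the group mean in libraries of the same number had correlations of -0.307 to 0.112. Between libraries of different number they were -0.209 to 0.295. These values alone cannot show whether the numbers mark a pairing. With the replicate number as a block, limma called 3, 2 and 0 members and 1178, 650 and 5 genes in all for P1MH over WT, P3MH over WT and P1MH over P3MH. The CLPB-C call in P1MH was lost under the block (limma adjusted p = 0.0793). Depth limits HSP16.9C, HSP23.2, HSP17.7 and HSP18.1 most, which rest on 6, 79, 121.5 and 142 reads over all libraries.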
